A study of Drosophila melanogaster with 6 samples.

Results

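The mRNAs of 40 Drosophila genes that copy DNA and drive the cell division cycle were followed in cultured S2 cells with and without the negative elongation factor NELF. The genes were chosen by name, as parts of the replication origin and fork, the ribonucleotide reductase, the cyclins and their kinases, the mitotic kinases, the spindle checkpoint and the histone mRNA machinery. Of the 40 genes, 28 had a probe set of their own and are described here among 11981 genes tested; where a gene has several probe sets the brightest one was taken. Another 11 genes had no probe set named for them in the annotation used here: Orc6, geminin, Mcm7, RnrS, dap, CycA, Cdk1, stg, polo, aurA and BubR1. The only probe set listed for E2f1 is shared with Torsin, so E2f1 was left out as well. These 12 genes were not analysed here.

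S2 is a cell line made from fly embryos that resembles macrophage-like blood cells, and the stock used came from the Drosophila Genomics Resource Center (DGRC). Total RNA was hybridised to Affymetrix Drosophila Genome 2.0 arrays, 2 arrays for each of 3 groups. Cells grown in serum-containing M3 medium were left untreated, were given dsRNA against β-galactosidase, a bacterial gene, for 96 hours (mock), or were given dsRNA against the NELF-B and NELF-E subunits for 96 hours (NELF-depleted). The depletion is by RNA interference in 1 cell line. Whether replicate arrays represent separate cultures is not stated in the labels, and the p-values therefore cover the array-to-array spread alone, which may be technical.

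A eukaryotic replication origin is marked by the origin recognition complex, onto which a ring of Mcm proteins is loaded; the ring unwinds the DNA once S phase starts. Entry into S phase is governed by cyclins D and E with their kinases and by the transcription factor pair E2F and Dp, which the retinoblastoma protein holds in check. Cyclins A and B with Cdk1 bring the cell into mitosis, and the anaphase-promoting complex ends it by marking cyclins for destruction. NELF acts at an earlier step of gene expression, keeping RNA polymerase II paused close to the start of a gene. Setting NELF-depleted beside mock cells addresses whether mRNAs of the division cycle depend on NELF, and untreated cells show the effect of an unrelated dsRNA.

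Levels are given as quantile normalized log2 intensities, in which 1 unit is a 2-fold difference. A level of one gene cannot be set against that of another, since each probe set binds with its own strength. Background was a log2 level of 3.88, below which 95% of the 17 tag control probe sets lie, and all 28 genes lay above it on each of the 6 arrays, with levels from 6.67 to 11.27. The targets check the labels. The level of NELF-B was 8.10 and 8.00 in untreated cells, 8.04 and 7.93 after mock treatment and 6.24 and 5.86 after NELF depletion. Nelf-E was at 8.15 and 8.39, 8.16 and 8.27, and 5.90 and 5.74 in the same order. Against mock the log2 fold changes were -1.94 (SE 0.170) for NELF-B and -2.40 (SE 0.155) for Nelf-E, with adjusted p-values of 0.000284 and 7.37e-05 by limma with an intensity-dependent prior. Limma with a single prior variance gave the same fold changes and called neither target (adjusted p = 0.139 for each). The untargeted TH1, which encodes NELF-D, had a value of 0.40 (SE 0.127, adjusted p = 0.244).

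Of 15 blood cell markers measured, 11 lay above background on average, among them srp, ush, Pxn and crq, while NimC1, Sr-CI, PPO1 and lz did not. Of the 15, eater and drpr, which encode phagocytic receptors, were called lower in NELF-depleted than in mock cells, each by a log2 fold change of -0.87 (adjusted p = 0.0170 and 0.00301), and none was called higher. The largest positive value among those above background was that of Hml, at 1.23 (adjusted p = 0.246). Of 9 markers of neurons, muscle, fat body and gonads, 1 lay above it, the neuronal gene elav. The summed log2 level of the 15 blood cell markers was 112.5 and 119.5 (untreated), 113.2 and 108.5 (mock) and 114.6 and 112.8 (NELF-depleted). That of the 9 other markers was 32.1 and 27.4, 34.2 and 29.4, and 29.7 and 27.4. A pair of RNA quality measures differed with the group. The 3′ minus 5′ log2 difference of the Act5C control probe sets was 1.22 to 1.46 on the 4 control arrays and 1.60 and 1.98 on the NELF-depleted ones. That of the GAPDH control probe sets was 0.759 to 1.47 on the control arrays and 0.478 and 0.442 on the NELF-depleted ones. Their part in the values below was not tested.

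No replication or cell cycle gene passed the test after NELF depletion. In NELF-depleted against mock cells 0 of the 28 genes were called at an adjusted p under 0.05 by limma with an intensity-dependent prior, beside 1.35% of all 11981 genes tested. At an unadjusted p under 0.05 there were 2, the anaphase-promoting complex activator fzr, with a lower value, and the helicase subunit Sld5, with a higher one; this is 7.14% of the 28, beside 11% of all genes. With 1 prior variance shared by all genes, limma called 0 of all 11981 genes, so its 0 calls among the 28 carry no information; at that unadjusted threshold it had 0 of the 28 and 1097 of all genes. The median log2 difference of the 28 genes was 0.04, with 15 positive and 13 negative, and the median of all genes tested was 0.01. The median size of the difference, whatever its sign, was 0.132 for the 28 genes and 0.141 for the 6532 genes above background.

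The intervals say how large a difference these arrays leave room for under the reported fit. That fit uses quantile normalized levels and, for each gene, a spread drawn partly from all genes. For CycE the fitted SE was 0.310, below the within-group SD of 0.536 that its own arrays gave. With scaling on hybridization controls, the median difference of the 28 genes against mock was itself -0.40. In NELF-depleted against mock cells the 95% intervals of all 28 genes lay within a 2-fold difference in either direction, against 82.6% of the genes above background. The genes above background were not matched to the 28 for level. Within a 1.5-fold difference lay 25 of the 28, or 89.3%, against 64.3% of the genes above background. The 3 exceptions were fzr, CycE and, by a narrow margin, Sld5, whose interval reached 1.51-fold. Within a 1.25-fold difference lay 7, or 25%, against 20% of the genes above background. A p-value that misses the threshold thus does not show that a gene was at the same level in both groups, and for most of these genes the interval reached past 1.25-fold.

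**Figure D1:**
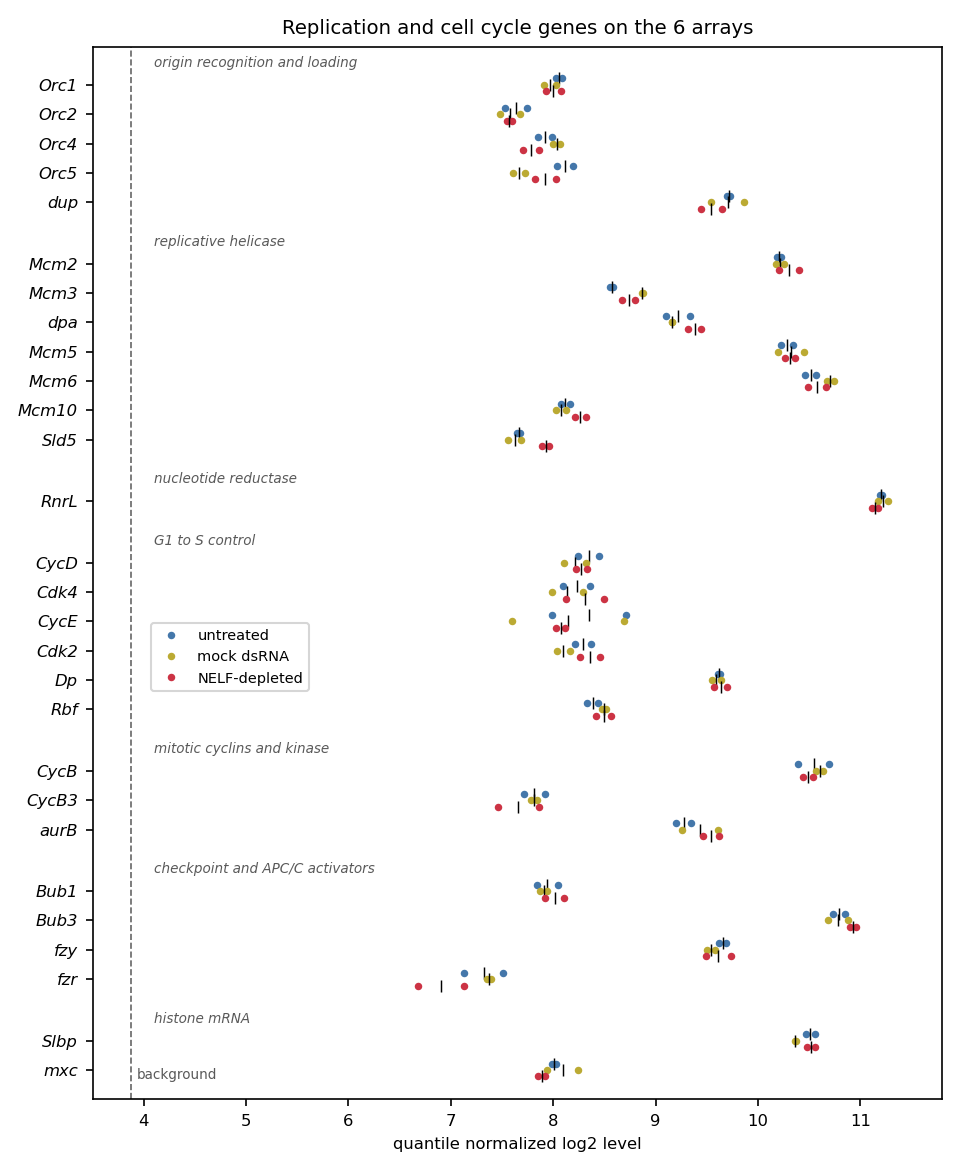
Quantile normalized log2 level (horizontal axis) of each of the 28 genes on the 6 arrays. Each dot is 1 array, blue for untreated, yellow for mock and red for NELF-depleted, each black tick is the mean of 2 arrays, and the dashed line is the background at 3.88. Groups lie close together for most genes, the 2 red dots of fzr lie to the left, and the 2 yellow dots of CycE lie far apart.

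The spread over all 6 arrays was small for most of the genes. The highest and lowest array differed by under 0.5 log2 units in 24 of the 28, or 85.7%, against 63.5% of the genes above background. Median levels of the 28 genes and of the genes above background were 8.37 and 8.43, but they were not matched for level. The genes above background reach down to 3.88, and the lowest value of the 28 was 6.67. The median of this range was 0.315 for the 28 genes and 0.402 for the genes above background, from 0.150 for Dp to 1.11 for CycE. Between the 2 arrays of a group, the median absolute difference over the 28 genes was 0.119 for untreated cells, 0.0941 for mock cells and 0.133 for NELF-depleted cells, and 0.140, 0.165 and 0.141 over all genes above background.

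The origin genes come first, since they act first. The origin recognition complex (Orc1, Orc2, Orc4 and Orc5) marks the origin, and dup encodes the fly Cdt1, which brings the Mcm ring to it. Of these 5 genes 2 had positive and 3 negative differences against mock, and none passed the test. Orc4 was at 7.99 and 7.85 without dsRNA, 8.07 and 8.00 with mock dsRNA and 7.86 and 7.70 with NELF dsRNA. Both NELF-depleted values thus lie below both mock values, but one of them overlaps the untreated values (log2 difference against mock -0.25, SE 0.129, adjusted p = 0.532). Orc5 was at 8.19 and 8.03, 7.61 and 7.72, and 7.82 and 8.02. Here the mock arrays are the low ones, and the NELF-depleted arrays lie between the other groups. The difference from mock was 0.26 (SE 0.135, adjusted p = 0.542) and that from untreated cells -0.19 (SE 0.135, adjusted p = 0.736).

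Orc1 had a mean of 8.06 in untreated cells, 7.97 after mock treatment and 8.00 after NELF depletion, and its 6 arrays differed by 0.176 at most. Orc2 had means of 7.64, 7.58 and 7.57. The dup means were 9.71, 9.70 and 9.54, with a difference against mock of -0.16 (SE 0.122), which was 0.00 without mock replicate 1 and -0.32 without mock replicate 2. Values of dup on the 2 mock arrays were 9.86 and 9.54, the highest of the 6 arrays and one of the lower ones.

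The helicase genes encode the motor of the fork. Mcm2, Mcm3, dpa (Mcm4), Mcm5 and Mcm6 are subunits of the Mcm ring, Sld5 is a subunit of the GINS complex that joins the ring in the active helicase, and Mcm10 helps the helicase to start. Against mock 4 of these 7 genes had positive and 3 negative differences, from -0.13 for Mcm3 to 0.30 for Sld5. Sld5 was at 7.65 and 7.68 in untreated cells, 7.56 and 7.68 after mock treatment and 7.96 and 7.89 after NELF depletion. Both NELF-depleted values lie above all 4 control values. The difference against mock was 0.30 (SE 0.130, 95% interval 0.01 to 0.59) and did not pass over all genes (adjusted p = 0.424). In each fit without 1 array it lay between 0.24 and 0.37. With arrays scaled on the hybridization controls it was -0.14, where the median of all genes tested was -0.42.

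The level of dpa was 9.10 and 9.34 in untreated, 9.16 on both mock arrays and 9.32 and 9.44 in NELF-depleted cells. The NELF-depleted arrays lie above the mock arrays and overlap the untreated ones (against mock 0.22, SE 0.109, adjusted p = 0.511). Mcm10 had means of 8.12, 8.08 and 8.26, and its NELF-depleted values, 8.21 and 8.32, also lie above all 4 control values (against mock 0.18, SE 0.118, adjusted p = 0.649). Mcm2 had means of 10.20, 10.22 and 10.30 and Mcm5 of 10.29, 10.32 and 10.31. For Mcm6 they were 10.51, 10.71 and 10.58 and for Mcm3 8.57, 8.87 and 8.74. In both of these genes the mock mean is the highest of the 3 means, so the sign of the NELF-depleted difference depends on the control: Mcm3 had -0.13 (SE 0.103) against mock and 0.17 (SE 0.103) against untreated cells.

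RnrL encodes the large subunit of ribonucleotide reductase, which makes the deoxynucleotides for replication. It was at 11.20 and 11.22 (untreated), 11.18 and 11.27 (mock) and 11.11 and 11.17 (NELF-depleted). All 6 values lie within 0.159 log2 units. The NELF-depleted values are the lowest 2 of the 6, by a difference of -0.08 against mock (SE 0.0901, adjusted p = 0.813).

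Genes that control the step from G1 to S phase came next. CycD and Cdk4 form the early G1 kinase, CycE and Cdk2 the kinase that starts S phase, Dp is the partner of E2F, and Rbf is the fly retinoblastoma protein that holds E2F in check. Cdk2 was at 8.21 and 8.37 without dsRNA, 8.17 and 8.03 with mock dsRNA and 8.46 and 8.26 with NELF dsRNA. The NELF-depleted arrays lie above the mock arrays and overlap the untreated ones (0.26 against mock, SE 0.126, adjusted p = 0.502; 0.07 against untreated, adjusted p = 0.915). Cdk4 was at 8.10 and 8.36, 7.99 and 8.29, and 8.12 and 8.50. The 2 arrays of each group differ by more than the group means do (0.17 against mock, SE 0.163, adjusted p = 0.776).

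CycE, named here because its spread was seen to be the largest of the 28, was at 7.99 and 8.71 in untreated cells, 8.69 and 7.60 after mock treatment and 8.12 and 8.03 after NELF depletion. Deposited intensities behind the mock values were 459.3 and 150.4. The untreated and mock arrays both enclose the NELF-depleted ones. The difference against mock was -0.07 (SE 0.310, 95% interval -0.76 to 0.62), and it was 0.48 without mock replicate 1 and -0.62 without mock replicate 2. Its probe set, like those of CycD, Cdk4, Cdk2 and fzr, carries the suffix that marks probes matching several transcripts.

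The other G1 genes were CycD, Dp and Rbf. CycD had means of 8.34 in untreated cells, 8.21 after mock treatment and 8.28 after NELF depletion. Its 6 arrays differed by 0.337 at most, and its 95% interval against mock ran from -0.22 to 0.35. Dp had means of 9.62, 9.59 and 9.63 and Rbf of 8.39, 8.50 and 8.49. The 95% interval of Dp against mock ran from -0.17 to 0.25 and that of Rbf from -0.25 to 0.25, both within 1.25-fold.

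**Figure D2:**
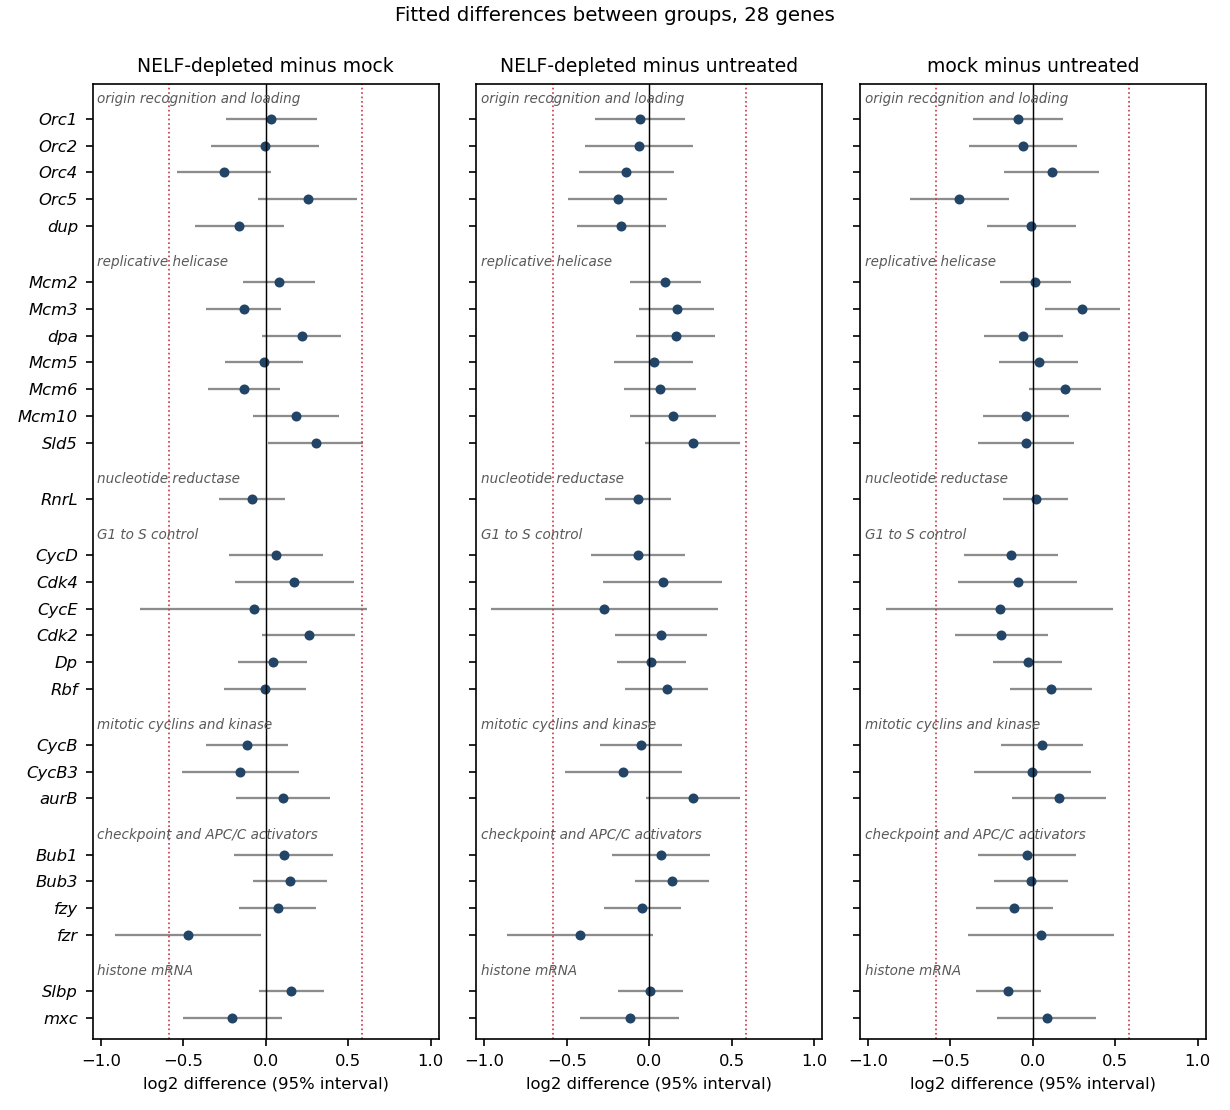
Fitted log2 differences (dots) with 95% intervals (bars) for the 28 genes in the 3 comparisons, grouped by role. The solid line is no difference and the dotted lines mark a 1.5-fold difference either way. Nearly all bars stay between the dotted lines, and the longest belong to CycE and fzr.

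Of the mitotic genes, 3 were measured. CycB and CycB3 encode B-type cyclins, the partners of Cdk1, and aurB encodes the Aurora B kinase, which corrects the attachment of chromosomes to the spindle. CycB was at 10.39 and 10.70 (untreated), 10.64 and 10.57 (mock) and 10.44 and 10.54 (NELF-depleted). The NELF-depleted values lie below the mock values and inside the untreated ones (-0.11 against mock, SE 0.112, adjusted p = 0.798). CycB3 was at 7.92 and 7.71, 7.84 and 7.78, and 7.86 and 7.46. One NELF-depleted array is the lowest of the 6 and the other lies among the controls (-0.15 against mock, SE 0.160, adjusted p = 0.801). The aurB means were 9.27, 9.43 and 9.54. Its difference was 0.10 against mock (SE 0.128) and 0.26 against untreated cells (SE 0.128, adjusted p = 0.545), where the arrays do not overlap.

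Checkpoint genes and the activators of the anaphase-promoting complex held the largest difference. Bub1 and Bub3 act in the spindle checkpoint, which delays anaphase until chromosomes are attached; fzy is the fly Cdc20, which activates the complex in mitosis, and fzr is the fly Cdh1, which activates it at the end of mitosis and in G1. The level of fzr was 7.50 and 7.13 without dsRNA, 7.39 and 7.35 with mock dsRNA and 7.12 and 6.67 with NELF dsRNA. Both NELF-depleted values lie below all 4 control values, the higher of them only just. Deposited intensities were 217.7 and 171.2, 185.1 and 126.9, and 131.5 and 83.7. The log2 difference against mock was -0.47 (SE 0.199, 95% interval -0.91 to -0.03), a level 0.721 times that of mock, and it did not pass over all genes (adjusted p = 0.414). Without NELF-depleted replicate 1 the difference was -0.70, and without NELF-depleted replicate 2 it was -0.25. Another probe set is listed for both fzr and BaraC and was not used.

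Bub3 was at 10.73 and 10.85 in untreated cells, 10.68 and 10.88 after mock treatment and 10.90 and 10.96 after NELF depletion. The NELF-depleted values are the highest 2 of the 6, with a difference of 0.15 against mock (SE 0.101, adjusted p = 0.677). Bub1 had means of 7.94, 7.91 and 8.01. The fzy means were 9.65, 9.54 and 9.61 on the probe set used, and the other 2 probe sets of fzy lay below background in every group.

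The last pair handles histone mRNA, which ends in a stem-loop in place of a poly(A) tail and is made in S phase. Slbp binds that stem-loop, and mxc encodes a protein of the histone locus body, where histone genes are transcribed. Slbp was at 10.56 and 10.47 (untreated), 10.37 and 10.36 (mock) and 10.56 and 10.48 (NELF-depleted). The mock arrays are the low ones, and NELF-depleted and untreated arrays coincide (0.15 against mock, SE 0.0891, adjusted p = 0.598; 0.01 against untreated, 95% interval -0.19 to 0.20). The mxc values were 8.02 and 7.99, 8.24 and 7.94, and 7.85 and 7.92. Both NELF-depleted values are below all 4 control values, by 0.02 log2 units at the nearest (-0.20 against mock, SE 0.135, adjusted p = 0.663).

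Arrays can also be compared by their order alone. In NELF-depleted against mock cells the arrays did not overlap in 14 of the 28 genes, or 50%, beside 39.2% of all genes tested and 43.6% of the genes above background. Higher in NELF-depleted cells were 7 of them, or 25%, beside 19.8% of all genes, and lower were the other 7, or 25%, beside 19.4%. Below or above all 4 control arrays lay 6 genes (Bub3, Mcm10 and Sld5 higher, fzr, mxc and RnrL lower), or 21.4%, beside 22.1% of all genes and 28.3% of the genes above background. Of all genes 11.1% lay above and 11% below the 4 control arrays, and of the 28 genes 10.7% each.

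**Figure D3:**
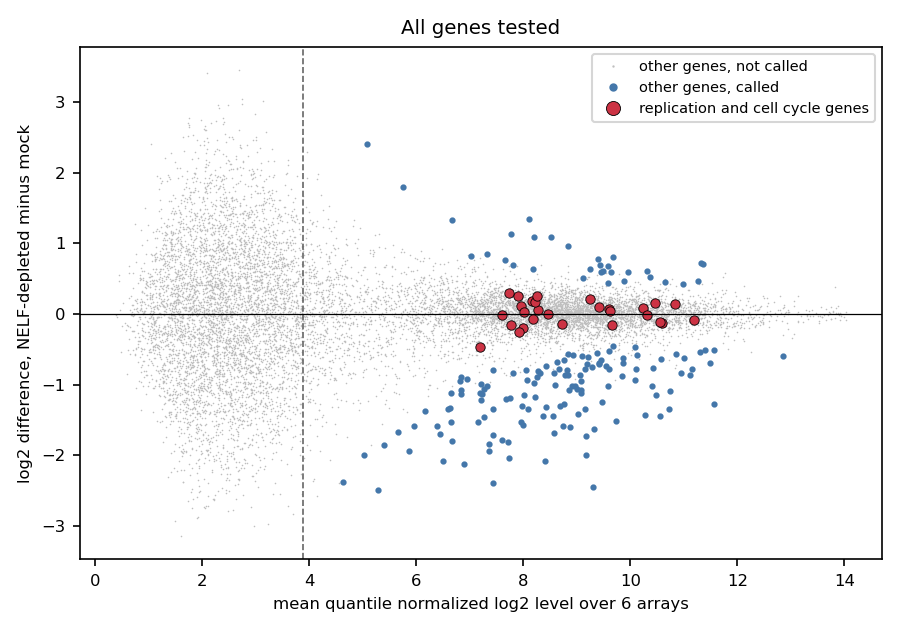
Log2 difference between NELF-depleted and mock cells (vertical axis) against the mean log2 level over 6 arrays (horizontal axis) for the 11981 genes tested. Red dots are the 28 replication and cell cycle genes, blue dots are other genes called at an adjusted p under 0.05, and the dashed line is the background. The red dots lie between -0.47 and 0.30, in the band of genes that were not called.

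Against untreated cells the count was again 0 of 28, beside 1.41% of all genes called by limma with an intensity-dependent prior. At an unadjusted p under 0.05 there was none either, beside 10% of all genes, and the fit with a single prior variance called 0 of all genes and had 0 of the 28 and 1044 of all genes at that threshold. This comparison shares the NELF-depleted arrays with the one against mock. The median log2 difference was 0.01, with values from -0.42 for fzr to 0.26 for aurB. The arrays did not overlap in 10 genes, or 35.7%, beside 40.8% of all genes and 45.9% of the genes above background. The 95% intervals of 26 of the 28 genes, or 92.9%, lay within 1.5-fold, against 65.6% of the genes above background. The exceptions were fzr and CycE. All 7 helicase genes had positive values, from 0.03 for Mcm5 to 0.26 for Sld5, and all 5 origin genes had negative ones, from -0.19 for Orc5 to -0.06 for Orc1, with none past the test; of all genes tested 51.2% had positive values. This division was noticed after the values were seen, and it rested on single arrays in part. Orc1 was at 0.02 without NELF-depleted replicate 1 and Orc2 at 0.05 without untreated replicate 1, while Mcm2, Mcm5 and Mcm6 had values below 0, down to -0.03, without NELF-depleted replicate 2, as did Mcm5 without untreated replicate 1 (-0.03). The 7 helicase values were negative for 6 genes with arrays centred on their medians and for all 7 as deposited and with scaling on hybridization controls. The median of all genes was negative there too, at -0.14, -0.37 and -0.35 in the same order. Under the quantile scaling and as deposited, all 7 helicase genes and 0 of the 5 origin genes lay above the median of all genes. The scalings as deposited, on array medians and on hybridization controls differ only by a constant for each array. A gene's place relative to that median is therefore the same in all of them, and their agreement adds nothing. Against mock, 4 of the 7 helicase genes and 2 of the 5 origin genes had positive values, beside 51.6% of all genes.

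The mock treatment alone gave 0 calls among the 28 genes and 0% of all genes. At an unadjusted p under 0.05 there were 2 of the 28, or 7.14%, beside 3.41% of all genes and 1.33% of the genes above background. Limma with a single prior variance had 1 of the 28 and 602 of all genes there. The 2 genes of the reported fit were Orc5, lower in mock by a log2 difference of -0.45 (SE 0.135, 95% interval -0.75 to -0.15), and Mcm3, higher by 0.30 (SE 0.103, 95% interval 0.07 to 0.53). Both had an adjusted p of 0.9997. Under the scaling as deposited the value of Mcm3 was -0.06, where the median of all genes tested was -0.31. Over the 28 genes the arrays of mock and untreated cells did not overlap in 9, or 32.1%, beside 28.4% of all genes and 24.9% of the genes above background. The median difference was -0.02. The intervals of 26 genes, or 92.9%, lay within 1.5-fold, against 73.9% of the genes above background, the exceptions being Orc5 and CycE.

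**Figure D4:**
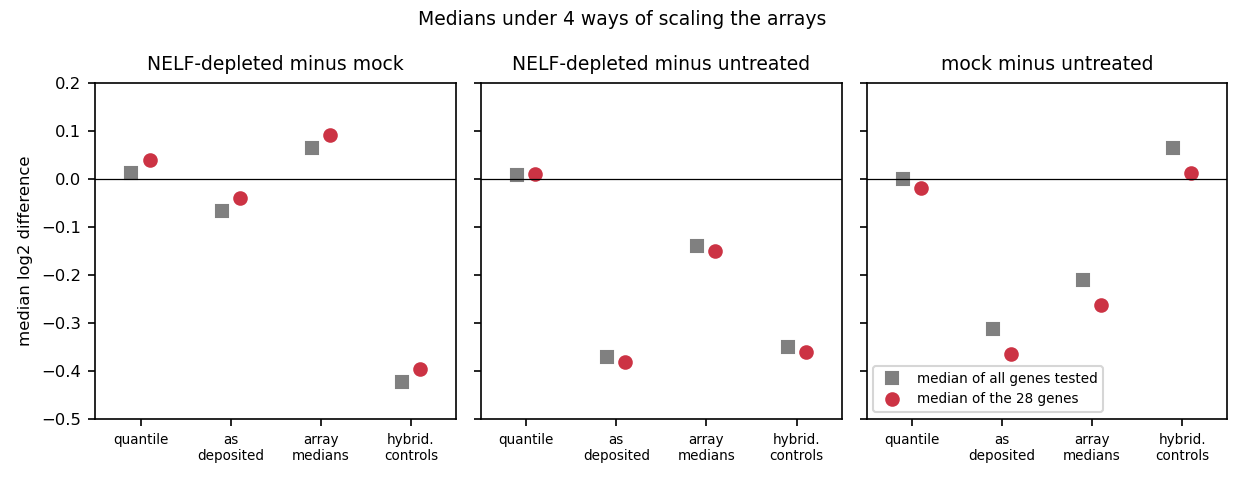
Median log2 difference (vertical axis) of the 28 genes (red circles) and of all genes tested (grey squares) under 4 ways of bringing the arrays to a common level, for the 3 comparisons. The medians lie within 0.1 of each other in each panel. All scalings but the quantile one differ only by a constant for each array, so among those the gap between the medians cannot change.

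The absence of calls holds for changes relative to other genes. Quantile normalization sets all arrays to 1 distribution, and a shift shared by all genes is removed with it. With arrays scaled on 9 probe sets of spiked-in hybridization controls, the median of all genes was -0.42 in NELF-depleted against mock cells and that of the 28 genes -0.40. Under that scaling all 28 values were negative, the higher values described above included. Of the 28 genes 15 were called lower and none higher, together with 2987 lower and 17 higher calls among all 11981 genes tested. These calls were not counted among the genes above background, where all 28 lie. Whether the 28 differ from genes of like level in this was therefore not tested. Mean deposited log2 levels of these controls were 10.77 and 10.64 without dsRNA, 10.57 and 10.08 with mock dsRNA and 10.79 and 10.57 with NELF dsRNA, mock replicate 2 being the lowest. Whether the shift of -0.42 arose in the cells or in the handling of RNA and arrays was not tested. It is therefore not a measure of mRNA per cell. In a population of cells, a smaller share of cells in a phase and less mRNA per cell cannot be told apart by these arrays.

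Other genes of the same processes, from lists written by role, also held no calls against mock, beside 1.35% of all genes tested. At that share, a count of 0 in lists this short does not set them apart from other genes. Of 33 further replication genes measured, such as polymerase, clamp loader and chromatin assembly subunits, 0 were called (median -0.01). The 2 with the smallest p were dUTPase, which clears dUTP before it enters DNA, at -0.35 (SE 0.109, adjusted p = 0.233), and the chromatin assembly factor gene Caf1-180 at 0.21 (SE 0.101, adjusted p = 0.484). The level of dUTPase was 11.36 and 11.22 in untreated cells, 11.35 and 11.49 after mock treatment and 11.18 and 10.95 after NELF depletion, the last being below all 4 controls. At an unadjusted p under 0.05 there was 1 of the 33, or 3.03%, beside 11% of all genes tested and 14.4% of those above background.

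Of 25 further genes of G1, G2 and the DNA damage checkpoint, 0 were called (median 0.02). At an unadjusted p under 0.05 there were 0, beside 11% of all genes tested. CycJ was below background in each group, and Claspin, a mediator of the replication checkpoint, had a value of 0.24 (SE 0.130, adjusted p = 0.549). Of 50 further genes of mitosis, 0 were called (median 0.02). At an unadjusted p under 0.05 there were 5, or 10%, beside 11% of all genes tested and 14.4% of genes above background, both directions counted. The 5 all had higher values and 0 had lower ones. By direction, 580 of all 11981 genes had higher and 740 lower values at that threshold. Of the 6532 genes above background these were 406 and 537. The cohesin subunit gene SMC1 was at 10.08 and 10.19 (untreated), 10.15 and 10.14 (mock) and 10.44 and 10.48 (NELF-depleted). Both NELF-depleted values lie above all controls, by 0.31 against mock (SE 0.0890, adjusted p = 0.175), and 0.32 against untreated cells (adjusted p = 0.163). The condensin subunit gene glu had a value of 0.39 (SE 0.133, adjusted p = 0.284) against mock and 0.04 against untreated cells.

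Of 8 further genes of histone mRNA processing, 0 were called (median 0.05). At an unadjusted p under 0.05 there was 1, or 12.5%, beside 11% of all genes tested and 14.4% of those above background. The 1 gene was Sym, which encodes the scaffold protein symplekin, at 0.36 (SE 0.118, adjusted p = 0.261). Lsm11, a part of the U7 particle, had a value of -0.24 (SE 0.287, adjusted p = 0.838). Limma with a single prior variance called 0 of all genes in this comparison.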

How the data were processed

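The authors deposited linear intensity values for 18952 probe sets on each of 6 arrays. Per the labels, the authors scanned the arrays with Affymetrix software and imported them into Rosetta Resolver; the probe summary, array scaling and background correction are not given in the labels. An offset of 0.819, the 5th percentile of the table, was added before log2, and the arrays were quantile normalized, since their log2 medians differed by 0.257. Only probe sets listed for 1 gene were kept, the 183 control probe sets were dropped, and the brightest probe set stood for a gene. Symbols came from the platform annotation, updated through gene identifiers with the RefSeq table of Release 6 plus ISO1 MT; 11893 of 11981 genes matched, and no position is given because no build is named.

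All 6 arrays were fitted with limma 3.58.1 in R 4.3.3 (3 group means, eBayes with an intensity-dependent prior, two-sided, Benjamini-Hochberg over all genes, called under 0.05), with 3 residual and 7.31 prior degrees of freedom. The scripts were tested on simulated data. Precision is limited by the small number of arrays; the 2 arrays of each group shared 0 identical values. Members, lists, the prior and the alternatives were chosen with earlier results of these data known. Values on each array are given for the 2 genes of each role with the smallest p against mock, for the dsRNA targets, and for a few genes singled out after their values were seen (CycE, Mcm10, dup, SMC1 and dUTPase); of the further lists, the 2 genes with the smallest p are named.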

Additional observations from a re-analysis of the deposited data

How the results depend on the processing

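Each of the 20 other settings was run in the 3 comparisons. The count of 0 calls among the 28 genes held in 19 of them for NELF-depleted against mock and against untreated cells, and in all 20 for mock against untreated cells; the exception in both was scaling on hybridization controls, with 15 and 14 calls, all lower. In that setting, 3004 and 2350 of all 11981 genes were called, and the median of the 28 genes was -0.397 and -0.362. Orc1 (-0.418), Mcm2 (-0.316), Dp (-0.376) and fzy (-0.347), with higher values against mock in the reported fit, were then called lower, and had values below 0 but no call in 3, 1, 3 and 1 of the other settings; another 11 genes called there had lower values in both. As deposited, 54 of all genes were called against mock and the median of the 28 was -0.383 for NELF-depleted and -0.365 for mock, both against untreated cells; with array medians 54 were called and these were -0.151 and -0.264. The single prior variance called 0 of all genes in both NELF-depleted comparisons, against 162 and 169, and the offset of 50 units called 74 and 89. With only genes above the median level 247 were called against mock. Leaving out 1 array in turn called from 65 to 127 of all genes against mock and from 70 to 146 against untreated cells. With the replicate number as a block, 271 and 270 of all genes and 0 of the 28 were called; deviations of same-numbered arrays correlated at 0.145 to 0.158 between groups over 6532 genes, and the labels do not say what the numbers mark. Where no value shows it, the cause of these differences was not tested.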
